A study of Mus musculus with 4 samples.

Results

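The 9 white adipocyte genes described here were adiponectin (Adipoq), Fabp4, perilipin 1 (Plin1, listed under its older symbol Plin on the arrays), complement factor D (Cfd), Cidec, Pparg, Car3, Slc2a4 and leptin (Lep). They were chosen by name as a set of genes that mark the fat cell, with earlier results of these data known. They were read by 12 of 41174 probes, which is 9 of 27591 named genes. Their levels were compared between jaw bones, the maxilla and the mandible, and bones of the trunk and limbs, the ilium of the pelvis and the femur, to see how far the fat cell signal differed between the bones. All 4 bones came from male C57BL/6 mice aged 35 days, with no treatment or genotype difference given in the labels. Each bone had 1 single-colour array, and the number of animals behind its RNA is not in the labels.

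White adipocytes store triglyceride in 1 large droplet, release fatty acids by lipolysis and secrete hormones such as leptin and adiponectin. In bone, adipocytes lie in the marrow among blood-forming and stromal cells, and in mice marrow stromal precursors also make adiponectin mRNA. Several of these genes are made by other cells too: Fabp4 by capillary endothelium and macrophages, Slc2a4 and Car3 by skeletal muscle, and Pparg by macrophages and osteoclast precursors. In whole bone, fewer cells of a type and less RNA per cell cannot be told apart.

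The DNA just upstream of the start is shown for Plin1, Cidec and Lep, and for Pparg and Adipoq, which were lower in both jaw bones. All 9 genes were higher in the ilium than in the femur, and Cfd, grouped below with Plin1 and Cidec, is not shown. PPAR-gamma and the C/EBP proteins are the transcription factors best known for switching on the fat cell programme, so their sites were looked for. RefSeq promoter windows, on the mouse assembly GRCm38.p6, were found for 6 of the 9 genes (Adipoq, Cfd, Cidec, Lep, Plin1 and Pparg), giving 9 windows of 250 bases before an annotated start. Both strands were searched for TTGCNNAA, a C/EBP core, for AGGTCA, the nuclear receptor half-site, for the direct repeat of that half-site with 1 base between its copies, and for TATAAA. In the lines below the capitals mark matches to TTGCNNAA on either strand, and each sequence runs 5′ to 3′ towards the start. The lines hold every window with such a match and, of the windows without one, that of Adipoq alone.
Plin1, chr7:79732777-79733026, minus strand: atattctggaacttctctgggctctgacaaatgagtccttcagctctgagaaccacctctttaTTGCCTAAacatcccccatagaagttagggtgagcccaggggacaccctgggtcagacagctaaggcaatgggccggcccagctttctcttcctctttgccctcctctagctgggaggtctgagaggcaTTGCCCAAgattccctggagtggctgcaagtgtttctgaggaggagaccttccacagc
Cidec, chr6:113434765-113435014, minus strand: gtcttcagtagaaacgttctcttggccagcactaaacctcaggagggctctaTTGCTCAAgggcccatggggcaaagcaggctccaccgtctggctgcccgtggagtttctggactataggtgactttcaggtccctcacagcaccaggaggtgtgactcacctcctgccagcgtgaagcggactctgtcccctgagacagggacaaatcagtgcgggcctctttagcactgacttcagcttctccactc
Lep, chr6:29059971-29060220, plus strand: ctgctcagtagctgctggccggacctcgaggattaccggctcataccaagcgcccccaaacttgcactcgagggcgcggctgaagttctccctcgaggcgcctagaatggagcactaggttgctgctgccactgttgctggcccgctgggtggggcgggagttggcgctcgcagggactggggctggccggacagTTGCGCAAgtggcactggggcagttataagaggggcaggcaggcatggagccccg
Pparg, chr6:115421816-115422065, plus strand: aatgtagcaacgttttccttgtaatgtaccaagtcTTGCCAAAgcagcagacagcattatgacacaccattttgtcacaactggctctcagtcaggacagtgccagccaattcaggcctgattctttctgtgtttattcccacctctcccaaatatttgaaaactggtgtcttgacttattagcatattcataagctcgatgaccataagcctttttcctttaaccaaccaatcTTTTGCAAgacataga
Adipoq, chr16:23146286-23146535, plus strand: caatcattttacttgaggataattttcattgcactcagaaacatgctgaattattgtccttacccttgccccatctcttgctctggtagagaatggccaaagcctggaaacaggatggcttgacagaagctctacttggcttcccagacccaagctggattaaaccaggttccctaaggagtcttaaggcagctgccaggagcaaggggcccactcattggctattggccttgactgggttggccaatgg

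The C/EBP core lay 187 and 58 bases before the start of Plin1, 198 bases before that of Cidec, 55 bases before that of Lep, where the match reads on both strands, and 215 and 16 bases before 1 of the 3 Pparg starts. At least 1 such match stood in 4 of the 9 windows, against 9.56% of all 32851 RefSeq windows of this length. The half-site stood in 2 of the 9 windows, both of Pparg, against 14.0% of all windows. TATAAA stood in 1 window, also of Pparg, against 12.4%. The direct repeat was in 0 of the 9 windows and in 0.0335% of all of them. The Adipoq and Cfd windows and the other Cidec window held none of these letters, and the windows are a description of sequence, not of factor binding.

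Values are on a log2 scale on which 0 is the 75th percentile of the processed signals of an array. The percentile was between 809 and 1208 signal units, between 72.8% and 75.5% of the spots were well above background, and 0 spots were saturated. Replicate spots of 1 probe had a median SD of 0.0552 to 0.0679 (log2) within an array, over 191 probes. Of the 9 genes, 8 were well above background on all 4 arrays, and Lep was so in the ilium alone. The bone classes were compared with limma over the 20610 genes with signal well above background on 2 or more arrays. The error was how far the bones of 1 class lay apart, and the spread between animals is not in these p-values. An exact permutation test of 2 bones against 2 cannot give a p below 0.333.

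**Figure D1:**
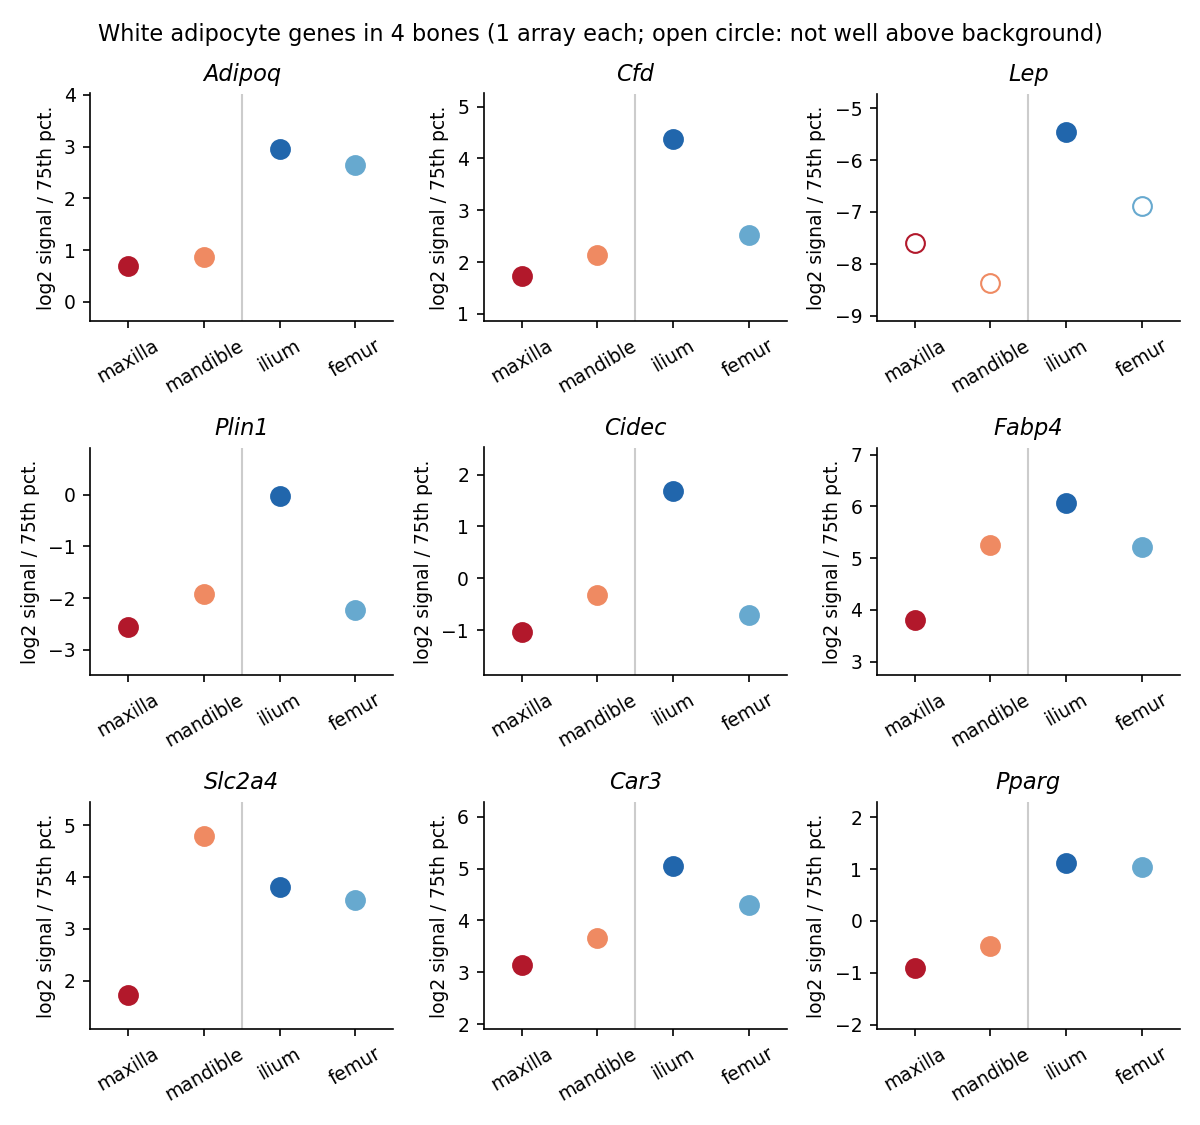
Level of each gene in each bone (log2 signal relative to the array's 75th percentile, y axes of equal height), 1 point per array, with open circles where the signal was not well above background. The ilium holds the highest point for all genes but Slc2a4, and the maxilla the lowest for all but Lep.

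Adipoq and Pparg were lower in both jaw bones than in both other bones, by 4.05-fold and 3.41-fold, and they were the 2 of 8 tested members whose difference passed the test. Adipoq, the hormone adiponectin, had 0.69 in the maxilla and 0.87 in the mandible, against 2.95 in the ilium and 2.64 in the femur. The jaw bones lay close together and the classes did not overlap. Its probe lies at chr16:23072837-23072896 of the mouse build mm8, on which the array was designed. The difference of jaw minus trunk and limb was -2.02 ± 0.23 (log2, SE, limma, 2 bones per class; adjusted p = 0.0326).

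Pparg, the nuclear receptor that drives fat cell differentiation, had -0.91 in the maxilla and -0.48 in the mandible, against 1.12 in the ilium and 1.03 in the femur. Its difference was -1.77 ± 0.25 (log2, SE, limma; adjusted p = 0.0368), and with no filter on background the adjusted p was 0.0547. Its probe, at chr6:115455814-115455873 of mm8, was printed in 10 spots. They spanned -0.97 to -0.84 in the maxilla, -0.55 to -0.46 in the mandible, 1.04 to 1.21 in the ilium and 0.96 to 1.08 in the femur. The ilium and femur spots thus overlapped, while those of the maxilla and mandible did not overlap each other or any spot of the other class.

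Among all genes tested, 7.24% were called lower and 4.51% higher in the jaw bones, while 2 members were called lower and 0 higher. By a rule of size without a test, in which the classes are at least 2-fold apart at their nearest bones, the same 2 members were lower and 0 were higher, against 9.81% and 9.34% of all genes. Both jaw bones lay below both other bones in 4 of the 8 tested members (Adipoq, Pparg, Cfd and Car3), against 36.3% of all genes. The median difference over the 8 was -1.22 (log2), against -0.03 over all genes tested. With the ilium left out, the adjusted p was 0.238 for Adipoq and 0.255 for Pparg; with the femur left out it was 0.357 and 0.361. Each of these fits kept the sign of both genes and called 0 genes of the array, with 3546 (without the ilium) and 2624 (without the femur) at an unadjusted p under 0.05. No other call between the classes given below held without the ilium or without the femur either.

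**Figure D2:**
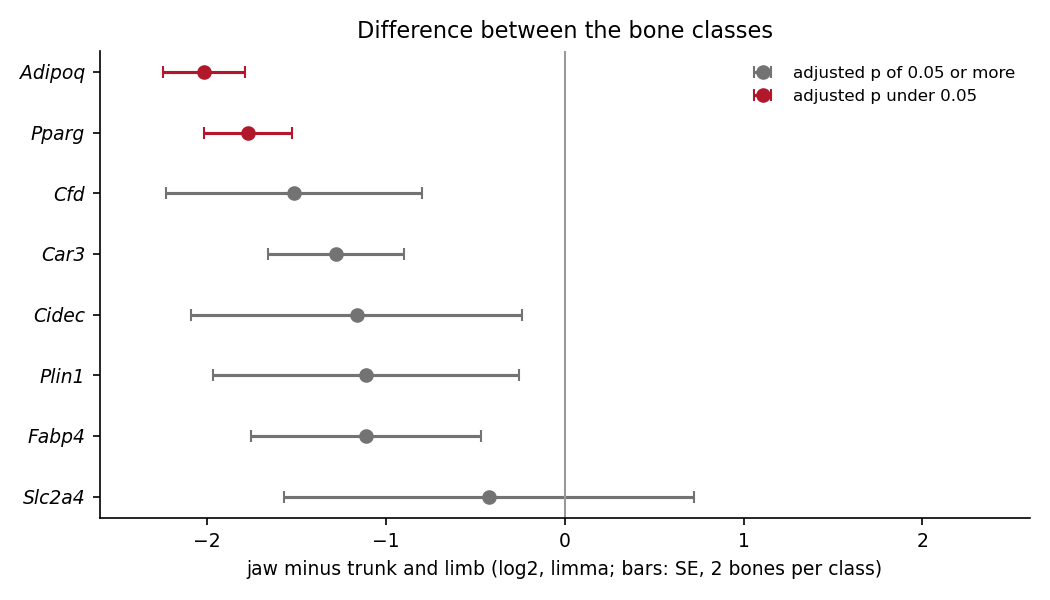
Difference of the jaw bones minus the trunk and limb bones (log2, x axis) for the 8 tested genes, with the SE from limma as bars and colour for adjusted p. All 8 points are below 0, and only those of Adipoq (-2.02) and Pparg (-1.77) passed the test.

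Most erythroid, neutrophil and macrophage markers were also lower in the jaw bones, though not all of these were called. Among all genes tested, 7.24% were called lower. All 8 erythroid markers were called lower in the jaw bones, with list means of -0.32 in the maxilla and 0.42 in the mandible, against 3.20 in the ilium and 3.54 in the femur. Of 8 neutrophil markers, 4 were called lower, with a median difference of -1.76, while 2 had their highest level in the maxilla. Macrophage markers were lower in both jaw bones than in both other bones for 9 of 10 genes, against 36.3% of all genes. Their median difference was -0.83, although Marco, a scavenger receptor, was the 1 gene of 10 called.

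Marrow stromal genes divided. Cxcl12, the chemokine that holds blood stem cells in the marrow, had 2.90 in the maxilla and 3.65 in the mandible, against 5.30 in the ilium and 5.41 in the femur (difference -2.08, limma adjusted p = 0.0441). Its adjusted p was 0.0515 with quantile normalization and 0.0622 with no filter on background. Vcam1, an adhesion molecule of stromal cells, differed by -2.25 (adjusted p = 0.0343, and 0.0501 with no filter). The other 8 of the 10 stromal and progenitor markers were not called, and the median over the list was 0.04. Among them Dlk1, a brake on fat cell formation, had -1.79 in the maxilla and 2.15 in the mandible, against -2.54 in the ilium and -3.80 in the femur. It was thus high in the mandible alone, and its difference of 3.35 had an adjusted p of 0.217 by limma. The part of these cells in the Adipoq and Pparg differences was not tested.

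The genes with a profile nearest to that of Adipoq over the 4 bones, by root mean square distance after centring each gene, were sought among 18391 genes well above background on all arrays, the members left aside. After the array feature NAP014233-001 (distance 0.061), they were Snx20 (0.093), H1f4 (0.097), Fchsd1 (0.107) and Lrrc25 (0.112). Clec4a2, a lectin of myeloid cells, and Mlkl, the effector of necroptosis, were also among the nearest 10.

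Plin1, Cidec and Cfd were high in the ilium, with the femur nearer to the mandible than to the ilium, and Lep was well above background in the ilium alone. Plin1 coats the lipid droplet of the fat cell, and its probe lies at chr7:79594739-79594798 of mm8. It had -2.56 in the maxilla and -1.92 in the mandible, against -0.03 in the ilium and -2.22 in the femur. The femur thus lay between the jaw bones, and the class difference of -1.11 ± 0.86 did not pass the test (limma adjusted p = 0.419). Without the ilium it was -0.01.

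Cidec, which promotes growth of the single large droplet, had -1.03 in the maxilla and -0.33 in the mandible, against 1.67 in the ilium and -0.71 in the femur. Here too the femur lay between the jaw bones. The probe lies at chr6:113390476-113390535 of mm8. The class difference was -1.16 ± 0.93 (limma adjusted p = 0.434), and without the ilium it was 0.03, on the other side of 0 (adjusted p = 0.984).

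Cfd, a protease of the alternative complement pathway known as adipsin, had 1.73 in the maxilla and 2.14 in the mandible, against 4.37 in the ilium and 2.53 in the femur. The classes did not overlap, yet the femur lay 0.38 above the mandible and 1.85 below the ilium. Its class difference was -1.51 ± 0.71 (limma adjusted p = 0.230) and -0.59 without the ilium, read by a probe at chr10:79295686-79295745 of mm8.

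Lep was the faintest member. In the maxilla 0 of its 10 spots were well above background and in the mandible 0 of the 8 that were not outliers, against 10 of 10 in the ilium and 1 of 10 in the femur. The ilium spots had a mean of -5.45 and a range of -5.73 to -5.06. With those bones set to the lowest signal well above background, or to the probe's own where higher, the ilium was at least 2.10-fold over the femur, at least 1.92-fold over the mandible and at least 1.48-fold over the maxilla. With normexp background correction in place of the processed signal, ilium minus femur was 0.30 (log2), against 1.43 as measured here. Well above background on 1 array, Lep was given no class test. Its probe lies at chr6:29023244-29023303 of mm8.

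**Figure D3:**
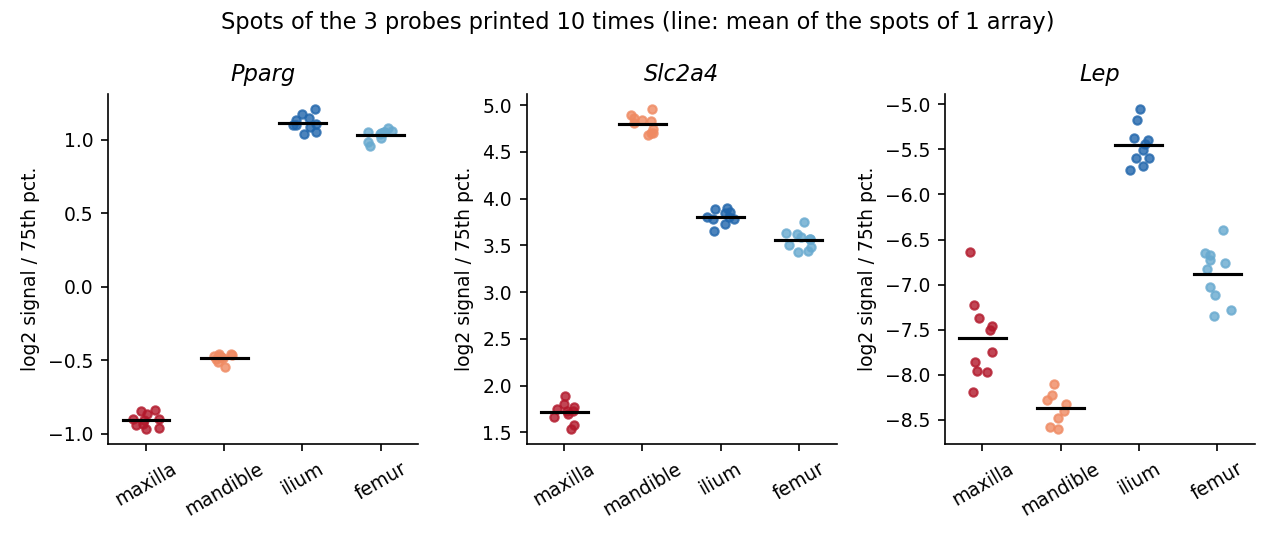
Signal of each spot (log2 relative to the array's 75th percentile) for the 3 probes printed 10 times, Pparg, Slc2a4 and Lep, with a line at the mean of the spots on 1 array. The ilium and femur spots overlap for Pparg and not for Lep, and the mandible spots of Slc2a4 stand above all others of that gene.

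The ilium exceeded the femur in all 9 genes, against 40.8% of 20889 genes well above background in either bone. Lep passed that filter through the ilium alone, so its direction was set by the filter, here and in the median that follows. The median of ilium minus femur was 0.84 (log2) over the 9, and -0.06 over all genes. The ilium was at least 4-fold over the femur for Cidec (5.22-fold) and Plin1 (4.59-fold), against 0.685% of all genes, and the femur was 4-fold over the ilium for 0 members, against 0.302%. Ranked by this difference, Cidec was gene 108, Plin1 121, and Cfd 168 of 20889. Lep, with only a bound in the femur, was given no rank. Adipoq, at 0.31, was gene 2754, and Pparg, at 0.08, gene 6190. The ilium and femur have 1 array each, so these differences have no replicate check.

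Some other genes of the fat cell, chosen after their values were seen, were also higher in the ilium than in the femur. Thrsp, a lipogenic nuclear protein, had 1.64 in the ilium and -0.30 in the femur, and Retn, the adipokine resistin, had -1.71 in the ilium and -3.43 in the femur. Fasn, which makes palmitate, had 4.97 in the ilium and 3.48 in the femur, and the desaturase Scd1 had 2.80 in the ilium and 1.59 in the femur. Over the 7 lists of fat pathway genes, 0 of 68 genes reached 4-fold and the median was 0.11, with 44 of 68 higher in the ilium. The list medians were 0.53 for synthesis, 0.17 for the complement pathway, 0.14 for lipid uptake and 0.11 for the lipid droplet. They were 0.04 for adipokines and hormone receptors, 0.01 for glucose uptake and -0.12 for the transcription factors.

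Of the markers of brown fat, the heat-producing adipocyte, Ucp1 and Cidea differed more between ilium and femur than any white adipocyte gene. The list median was 0.38 over the 8 markers well above background in either bone, below the 0.84 of the white adipocyte genes. Ucp1, the uncoupling protein that defines brown fat, had -4.96 in the maxilla and -0.45 in the mandible. It had 1.21 in the ilium and -6.62 in the femur, where it was not well above background. Ucp1 passed the filter through the ilium alone. The ilium was at least 213-fold over the femur. Cidea, the brown fat relative of Cidec, had 3.30 in the maxilla and 1.41 in the mandible, against 3.63 in the ilium and -1.29 in the femur, so it was 30.4-fold higher in the ilium than in the femur. The other 6 markers measured there lay closer together in these bones: Zic1, Cox8b, Dio2, Prdm16 and Ppargc1a had differences of ilium minus femur between 0.09 and 0.62, and Cox7a1 had -0.23. Of the 8 brown fat markers tested between the classes, Ppargc1a, a coactivator of mitochondrial genes, was called higher in the jaw bones (1.43, limma adjusted p = 0.0439), but the adjusted p was 0.0590 with median centring, 0.0521 with quantile normalization, 0.0613 with the series table and 0.0651 with no filter.

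Markers of other cells also moved with the ilium. All 8 osteoclast markers were higher in the ilium than in the femur, against 40.8% of genes well above background in either bone. Of them, 3 were higher by 4-fold or more, against 0.685% of those genes. The osteoclast list means were 1.40 in the ilium and -0.35 in the femur. All 8 osteoblast markers were higher in the ilium too, by a median of 0.61. Genes of nose and tooth were measured in the ilium at low levels: Bpifa1, a secreted protein of the airway, was at least 25.5-fold over the femur and Dspp, of dentin, at least 6.59-fold. Of genes well above background in either bone, 5 of 6 nasal and salivary genes were higher in the ilium, against 40.8% of all genes. So were 3 of 4 enamel and dentin genes. Bpifa1, Aqp5 and Cyp2a5 of the first list and Dspp of the second passed that filter through the ilium alone. Their direction was thus set by the filter. In the jaw bones Bpifa1 reached 7.33 in the maxilla and Dspp 5.71 in the mandible. The part of these cells in the ilium levels of the fat genes was not tested.

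**Figure D4:**
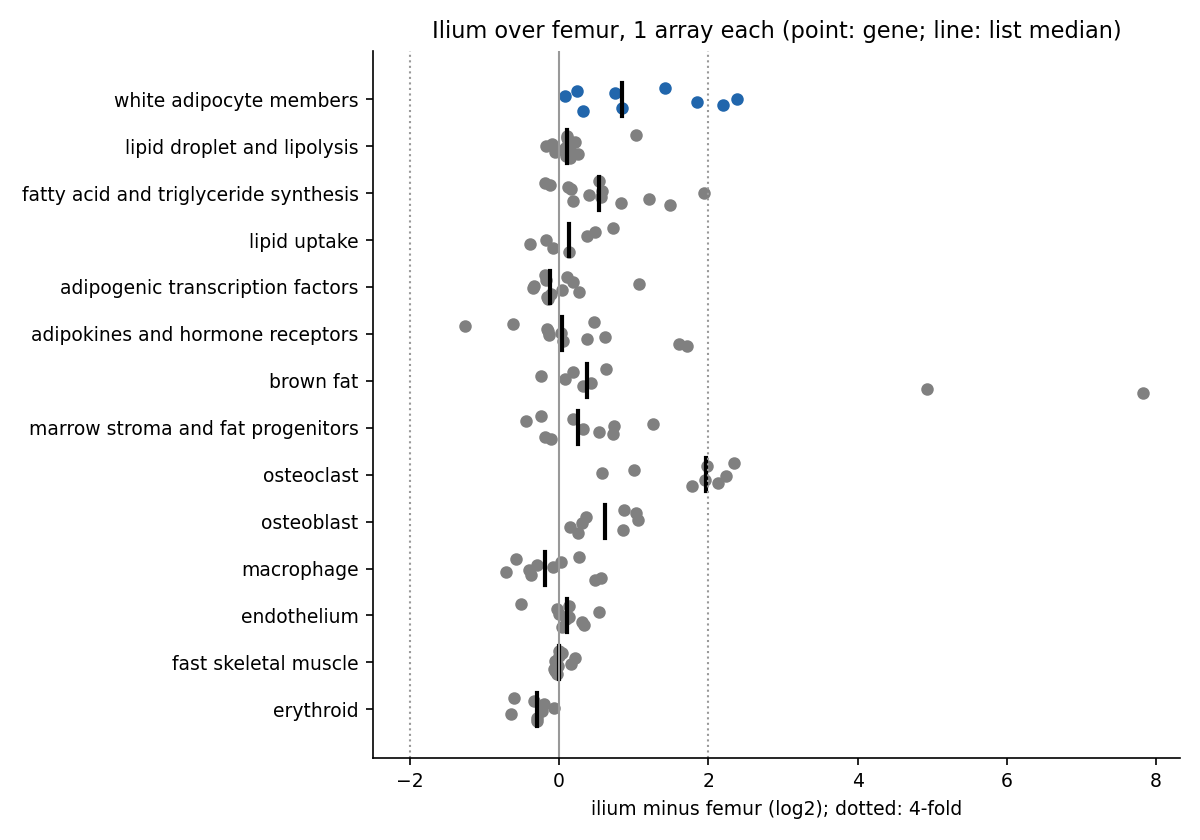
Ilium minus femur (log2, x axis) for each gene of the 9 white adipocyte genes and 13 other lists, with a line at the list median and dotted lines at 4-fold. All 9 white adipocyte genes lie above 0, up to 2.38 for Cidec, and the points farthest right are Cidea and Ucp1 of the brown fat list. Genes not well above background in 1 of the bones, Lep and Ucp1 among them, are drawn at their measured difference.

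Slc2a4 took another course. It encodes the glucose transporter GLUT4, which insulin brings to the surface of fat and muscle cells, and it had 1.72 in the maxilla and 4.80 in the mandible, against 3.80 in the ilium and 3.56 in the femur. The mandible was highest and the maxilla lowest, so the classes overlapped. The 10 spots of its probe, at chr11:69758766-69758825 of mm8, spanned 1.54 to 1.89 in the maxilla, 4.68 to 4.95 in the mandible, 3.65 to 3.90 in the ilium and 3.43 to 3.75 in the femur. The ilium and femur spots overlapped, and those of the other bones stood apart.

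The class difference of Slc2a4 was -0.42 ± 1.14 (limma adjusted p = 0.818), and it rested on which jaw bone was read. Without the maxilla it was 1.12, and without the mandible -1.97, each from a single jaw array. The signal was 8.48-fold lower in the maxilla than in the mandible, and Slc2a4 was the 1 member of 8 at least 4-fold over in the mandible, against 2.5% of 21080 genes. The maxilla was 4-fold over the mandible for 0 members, against 8.95% of genes. The mandible exceeded the maxilla in all 8 members that were well above background there, against 53.7% of genes. Their median of maxilla minus mandible was -0.58, against -0.06 over all genes.

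Fast muscle markers were also lowest in the maxilla. Of 10 fast muscle markers, 8 were at least 4-fold over in the mandible, and the list means were 3.69 in the maxilla and 6.17 in the mandible, against 6.41 in the ilium and 6.39 in the femur. Mb, the oxygen store myoglobin, is a marker of the slow muscle list. It had 4.68 in the maxilla and 7.10 in the mandible, against 5.74 in the ilium and 5.87 in the femur. Like Slc2a4 it was highest in the mandible, the 1 slow marker of 8 to be so. Of the 10 fast markers, 3 were highest there. Some fat pathway genes that muscle also makes had their highest level in the mandible as well. Plin4, a droplet coat protein, had 1.48 in the maxilla and 4.20 in the mandible, against 3.16 in the ilium and 2.91 in the femur. Fitm1, which helps form droplets in muscle, had -1.05 in the maxilla and 2.01 in the mandible, against 1.61 in the ilium and 1.50 in the femur. The part of muscle in the Slc2a4 levels was not tested.

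**Figure D5:**
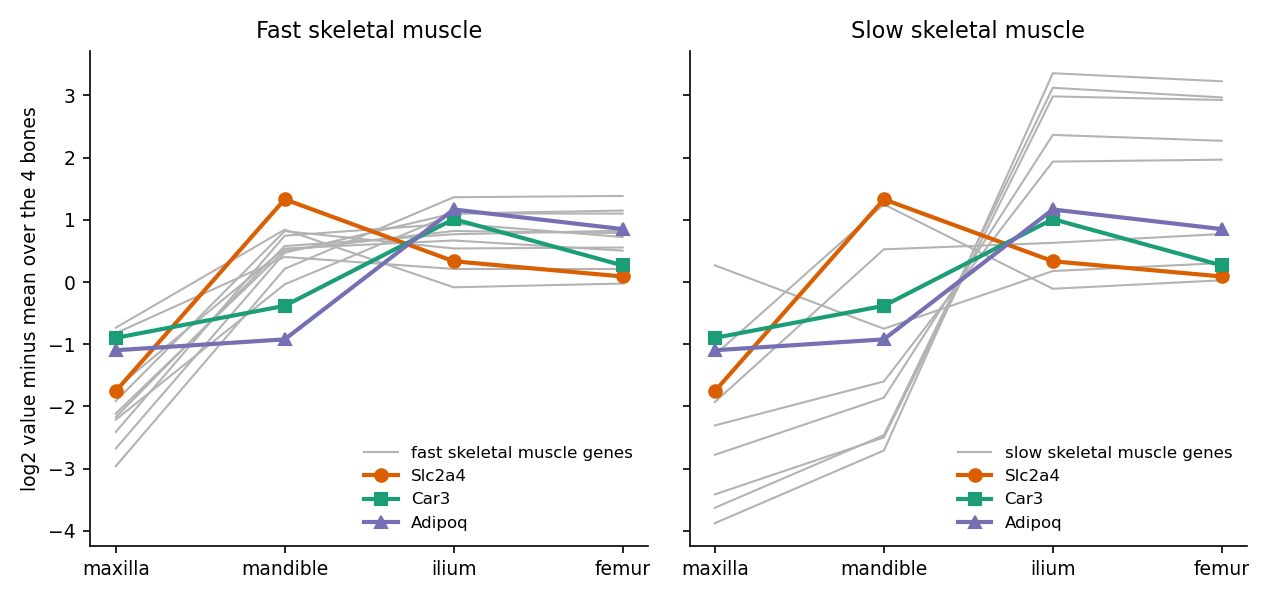
Level minus the mean of the 4 bones (log2, y axis) for Slc2a4, Car3 and Adipoq, with grey lines for each of the 10 fast (left) and 8 slow (right) muscle markers. Slc2a4 peaks in the mandible, Car3 and Adipoq in the ilium, and all fast muscle lines are lowest in the maxilla.

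Fabp4 and Car3 lay between these courses. Fabp4, the fatty acid carrier of the fat cell cytoplasm, had 3.80 in the maxilla and 5.26 in the mandible, against 6.07 in the ilium and 5.22 in the femur. The mandible and the femur differed by 0.04, below the usual spread between spots of an array, while the maxilla was 1.46 below the mandible. The class difference was -1.11 ± 0.64 (limma adjusted p = 0.304), and without the mandible, from a single jaw array, it was -1.84. The probe used spans chr3:10187065-10187794 of mm8. The other 2 Fabp4 probes gave differences of -1.02 and -1.46 and also had their highest level in the ilium. Endothelial markers, a further source of Fabp4, had list means of 0.02 in the maxilla and 0.83 in the mandible, against 0.80 in the ilium and 0.70 in the femur, and the part of endothelium was not tested.

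Car3, a carbonic anhydrase abundant in fat and slow muscle, had 3.14 in the maxilla and 3.66 in the mandible, against 5.05 in the ilium and 4.30 in the femur. The classes did not overlap, and the difference of -1.28 ± 0.38 did not pass the test (limma adjusted p = 0.110). A second Car3 probe, at chr3:14841475-14841534 of mm8, gave another picture, with 0.26 in the maxilla and 0.91 in the mandible, against 1.49 in the ilium and -0.18 in the femur. By that probe the classes overlapped, with a difference of -0.07. The probe used lies at chr3:14848525-14848584. Of 8 slow muscle markers, 5 were called lower in the jaw bones, with list means of -0.65 in the maxilla and 0.44 in the mandible, against 3.51 in both the ilium and the femur, and their part in the Car3 levels was not tested.

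The wider fat pathways were mostly not called between the classes. Of 71 genes in the 7 lists, 67 were tested, 5 were called lower and 0 higher in the jaw bones. That is near the 7.24% called lower among all genes. The median difference was -0.13, against -0.03 over all genes tested. In triglyceride synthesis, 1 of 13 was called: Dgat1, which adds the last fatty acid, had -0.37 in the maxilla and -0.18 in the mandible, against 1.14 in the ilium and 1.33 in the femur (difference -1.51, limma adjusted p = 0.0369, and 0.0565 with no filter). In lipid uptake 1 of 7 was called, Acsl1, which activates fatty acids (-1.18, adjusted p = 0.0477). Its adjusted p was 0.0733 with quantile normalization and 0.0736 with no filter on background. Among adipokines and their receptors 1 of 11 was called, the adiponectin receptor Adipor1 (-1.32, adjusted p = 0.0400), with 0.0513 after quantile normalization and 0.0622 with no filter.

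Of 4 genes of the alternative complement pathway, in which Cfd acts, 2 were called lower. C3, the central component that the pathway cleaves, had 3.85 in the maxilla and 3.67 in the mandible, against 5.69 in the ilium and 5.79 in the femur (-1.98, limma adjusted p = 0.0326), and Cfp, the stabilising protein properdin, differed by -1.89 (adjusted p = 0.0391, and 0.0566 with no filter). Both had nearly the same level in ilium and femur, where Cfd differed by 1.85. In the droplet and lipolysis list 0 of 13 were called, with 3 at an unadjusted p under 0.05, against 34.3% of all genes tested, and the largest difference, that of the hormone-sensitive lipase Lipe, was -1.13 (adjusted p = 0.0987) and turned to 1.00 with the mean over its probes.

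Among 12 transcription factors of fat cell formation, 0 were called and 4 had an unadjusted p under 0.05, a share close to that of all genes. Cebpa, which acts with Pparg, had 0.03 in the maxilla and -0.85 in the mandible, against 0.68 in the ilium and 0.82 in the femur, and its difference of -1.16 was not called (limma adjusted p = 0.126). The largest difference was that of Ebf2, a factor of fat cell precursors, at 1.47 in the maxilla and -1.44 in the mandible, against -1.72 in the ilium and -2.80 in the femur. The maxilla stood apart from the other bones (difference 2.28, limma adjusted p = 0.251). In the glucose uptake list 0 of 7 were called, with 1 at an unadjusted p under 0.05, below the share of all genes. That was Tbc1d4, which acts between insulin and GLUT4, with a difference of 1.87 (adjusted p = 0.0777).

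With the members of the whole set taken by their median profile, the nearest genes of 18391 were Prrg1 (distance 0.070), Sln (0.139), Steap3 (0.143) and Ggt5 (0.189). Sln, or sarcolipin, is a regulator of the muscle calcium pump. It had -0.37 in the maxilla and 0.22 in the mandible, against 1.90 in the ilium and 0.98 in the femur.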

How the data were processed

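RNA was purified by a column kit meant for fatty tissue and labelled with 1 dye, cyanine 3, per the labels' protocols. The deposited array files hold linear intensity values, per the submitters' processing notes from Agilent Feature Extraction 9.5.3.1, with a processed signal that was background-subtracted and detrended per the file headers. The deposited series table holds log2 values. Compared with the scanner values, its columns were log2 ratios to the ilium array plus a constant of -0.122 to 0.0955, within 0.001 for at least 99.7% of genes. Its column medians were -0.179, -0.133, 0 and 0.0146 for maxilla, mandible, ilium and femur, and the reason for the constants is unknown.

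From these files, spots that the program set as outliers were left out, spots of a probe averaged and the probe with the highest mean taken for a gene. Names came from a RefSeq table (GRCm38.p6) by accession for 24496 probes, by current symbol for 6234 and by older symbol for 2386, while 8058 kept the name in the file. Probe positions are those of build mm8 in the files, and no annotation of that build was used, so exon and UTR status is not given. Genes with signal well above background on 2 or more arrays were tested with limma 3.58.1 in R 4.3.3 (Benjamini-Hochberg, 0.05, 2 residual and 1.76 prior degrees of freedom), a script also tested on simulated data. Pairs of single bones had no test and were counted at 4-fold. The arrays lay on 1 slide, so slide position and bone cannot be told apart.

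The members and the 20 gene lists were chosen with earlier results of these data known. All members were named. Other names came from the pathway and cell type genes called or with the largest difference of their list, and from the 10 nearest profiles. Not every gene of these groups is named, and Clec4a2 and Mlkl were picked from the 10 nearest to Adipoq. Cebpa, Plin4, Fitm1, Fasn, Scd1, Thrsp, Retn, Mb, Bpifa1, Aqp5, Cyp2a5 and Dspp were chosen after their values were seen. So were the brown fat genes other than Ppargc1a, and the bound used for bones not well above background. Alternatives covered background correction, scaling, filters, outliers, probe choice and leaving out each bone.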

Additional observations from a re-analysis of the deposited data

How the results depend on the processing

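Adipoq was called in 10 of 12 alternatives and Pparg in 9, and both kept their direction in all of them. Genes called numbered 2421, and 1118 with no filter on background, where 1 member, Adipoq, was called and Pparg had an adjusted p of 0.0547. Leaving out 1 bone gave between 0 and 8204 called genes and between 0 and 4 called members. Each of these fits had 1 residual degree of freedom and 1 class with a single bone, so its error came from the other class alone. The median over the members was between -1.99 (without the femur) and -0.64 (without the ilium). With 1 bone left out, the Cidec difference was between -2.35 (without the femur) and 0.030 (without the ilium), and that of Slc2a4 between -1.97 (without the mandible) and 1.12 (without the maxilla). The sign also turned for Lipe with the mean over its probes (1.00, adjusted p = 0.0747), where the cause was not tested. Without the mandible the difference was -1.47 for Lipe, 3.73 for Ebf2 and 1.34 for Tbc1d4. Without the maxilla it was 5.32 for Dlk1 and 2.40 for Tbc1d4. With normexp background correction, genes 4-fold apart numbered 1291 between maxilla and mandible (2414 otherwise) and 35 between ilium and femur (206 otherwise). Ilium minus femur was then 2.26 for Cidec and 2.03 for Plin1, and 0.30 for Lep (1.43 otherwise). Of 72 differences between 2 bones under the alternatives, 27 moved by more than the spread between spots. Median centring and the series table moved all 9 members' maxilla minus mandible, that of Adipoq to -0.43 and -0.45 (-0.17 otherwise). The share of calls that were higher in the jaw bones was 38.4%, against 26.8% with median centring, which moved the median of all genes to -0.28, and 27.2% with the series table. No paired analysis was possible because each bone had 1 array. With 1 array per bone, the number of arrays and the signal over background, for Lep above all, limit the precision.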
